A study of Mus musculus with 16 samples.

Results

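The metallothioneins and the zinc handling genes of mouse liver were followed across 4 genotypes. The group holds 8 genes, chosen by symbol from the 56832 genes of the deposited table: the metallothioneins *Mt1* and *Mt2*, the zinc sensor *Mtf1*, the exporters *Slc30a1* and *Slc30a10*, and the importers *Slc39a4*, *Slc39a10* and *Slc39a14*. All 8 lay above the level set for testing, a mean of 3 over the 16 libraries on the rlog scale, as did 15128 genes in all. The genes were picked by name with earlier results of these data known, so their counts and calls describe these libraries and are not independent evidence.

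RNA was sequenced from livers of adult mice, 4 libraries per genotype. L-DKO mice carried floxed alleles of both genes (Gclc f/f Nrf2 f/f), Gclc L-KO mice carried Gclc f/f, Nrf2 L-KO mice carried Nrf2 f/f, and WT mice carried Gclc wt/wt. All 4 groups, WT included, were injected in the tail vein with AAV-TBG-Cre, a viral vector carrying Cre, and livers were taken 3 weeks later. The TBG promoter restricts Cre to hepatocytes, and non-hepatocytes are not targeted. *Gclc* is needed for the first step of glutathione synthesis, and *Nrf2* (*Nfe2l2*) encodes a transcription factor that turns on antioxidant genes.

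Metallothioneins are small, cysteine-rich proteins that bind zinc, copper and cadmium and buffer free zinc in the cytosol. When free zinc rises, the zinc finger factor MTF1 binds metal response elements in DNA and turns on *Mt1*, *Mt2* and the exporter *Slc30a1*. Liver metallothionein is also known to respond to glucocorticoids, acute phase signals and oxidants. SLC30 proteins (ZnT) move zinc out of the cytosol, and SLC39 proteins (ZIP) move it in. *Slc30a10* and *Slc39a14* are best known in liver for carrying manganese.

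The promoters of *Mt1*, *Mt2* and *Slc30a1*, which MTF1 is known to turn on and which were called in L-DKO against WT, are shown for the letters it is known to bind. The windows run from 250 bases before to 50 bases after the gene start in RefSeq (build GRCm38.p6, whereas the deposited values were made on GRCm39), and 6 of the 8 genes had one. On the plus strand they are chr8:94178839-94179138 for *Mt1*, chr8:94172368-94172667 for *Mt2* and chr1:191906531-191906830 for *Slc30a1*. Capitals mark every match to the core of the metal response element, TGCACNC or TGCGCNC on either strand.
Mt1: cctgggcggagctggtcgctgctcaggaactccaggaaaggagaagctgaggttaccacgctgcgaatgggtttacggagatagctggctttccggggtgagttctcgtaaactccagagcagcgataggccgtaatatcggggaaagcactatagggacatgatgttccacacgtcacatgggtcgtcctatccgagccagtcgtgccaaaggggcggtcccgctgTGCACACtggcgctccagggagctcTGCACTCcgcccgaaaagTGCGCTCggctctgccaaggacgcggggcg
Mt2: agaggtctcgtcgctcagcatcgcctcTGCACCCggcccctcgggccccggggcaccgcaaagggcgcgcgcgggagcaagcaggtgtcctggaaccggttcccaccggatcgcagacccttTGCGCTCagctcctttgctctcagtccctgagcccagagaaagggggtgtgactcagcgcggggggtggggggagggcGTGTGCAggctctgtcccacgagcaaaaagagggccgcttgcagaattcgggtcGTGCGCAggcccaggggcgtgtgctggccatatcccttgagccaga
Slc30a1: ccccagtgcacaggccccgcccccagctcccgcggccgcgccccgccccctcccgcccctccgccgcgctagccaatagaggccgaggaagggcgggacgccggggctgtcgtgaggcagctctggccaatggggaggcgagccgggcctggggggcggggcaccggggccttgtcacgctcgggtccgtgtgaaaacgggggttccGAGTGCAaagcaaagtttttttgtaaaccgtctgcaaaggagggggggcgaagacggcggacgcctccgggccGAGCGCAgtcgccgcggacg
*Mt1* held 3 cores, whose first bases lay at positions -23, 3 and 21 from the start. *Mt2* held 4, at -223, -128, -50 and 5, the last 2 on the minus strand. The GENCODE start of *Mt2* lies 46 bases downstream of the RefSeq start from which these positions and its window are counted, and that of *Mt1* lies 7 bases upstream. *Slc30a1* held 2, at -43 and 31, both on the minus strand. Of 32851 promoter windows of this length, 25.7% held 1 or more cores, 7.11% held 2 or more, 1.97% held 3 or more and 0.517% held 4 or more. *Slc30a10* (chr1:185454598-185454897) held 3 matches, 2 of which overlap each other, and the windows of *Mtf1* and *Slc39a10* held 0. The core of the antioxidant response element that NRF2 binds, TGACNNNGC on either strand, matched 1 time each in *Mt2* and *Slc30a1*, 0 times in *Mt1*, and in 12.4% of all windows. These are matches of letters inside the windows, whose place depends on the start used. Sequence outside them was not searched, so a count of 0 holds for the window alone. Binding was not measured.

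*Mt1* and *Mt2* lie next to each other on mouse chromosome 8. Their first listed GENCODE transcripts are 549 and 511 bases long and share no identical run longer than 20 bases.

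The deposited values are rlog values, log2 counts scaled between libraries and pulled toward the mean of each gene. Read counts and depth are unknown from them. The median value of a library ran from 8.33 to 8.38. Over its whole length, *Gclc* fell by 1.75 in L-DKO libraries against WT and was not lower in the libraries labelled Gclc L-KO (difference 0.21), and *Nfe2l2* was 0.62 higher in Nrf2 L-KO libraries, without a call, and 1.20 higher in L-DKO libraries. Values per gene cannot show the loss of an exon. In every genotype, *Xist* ran from 14.10 to 14.65 in replicates 1 and 2 and from 7.95 to 8.91 in replicates 3 and 4, the pattern of females and males. The labels give no sex, so the animals are called here by replicate number.

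Against WT, 3 of the 8 genes rose in L-DKO livers and 0 fell, 2 rose and 2 fell in Gclc L-KO livers, and 0 passed the test in Nrf2 L-KO livers. A gene was called where the adjusted p of the limma fit over all tested genes was under 0.05. Over all 15128 genes, 9.96% were called in L-DKO (3.79% higher and 6.17% lower), 23% in Gclc L-KO (10.6% higher and 12.4% lower) and 0.139% in Nrf2 L-KO. Set against Gclc L-KO, L-DKO livers had 1 of the 8 genes lower, where 8.64% of all genes were called, and set against Nrf2 L-KO they had 2 higher, where 5.26% were. The interaction, which asks whether Gclc loss had another effect with Nrf2 deleted than without, called 0 of the 8 genes and 0.687% of all genes. At an unadjusted p under 0.05, limma gave 1 of the 8 genes in Nrf2 L-KO and 1 in the interaction. The share of all genes at that unadjusted threshold was not counted, so these 2 counts cannot be set beside it. The median change of the 8 genes was 0.06 in L-DKO, 0.28 in Gclc L-KO and 0.07 in Nrf2 L-KO, beside 0.00 over all genes in each, with rises and falls side by side in the group.

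**Figure D1:**
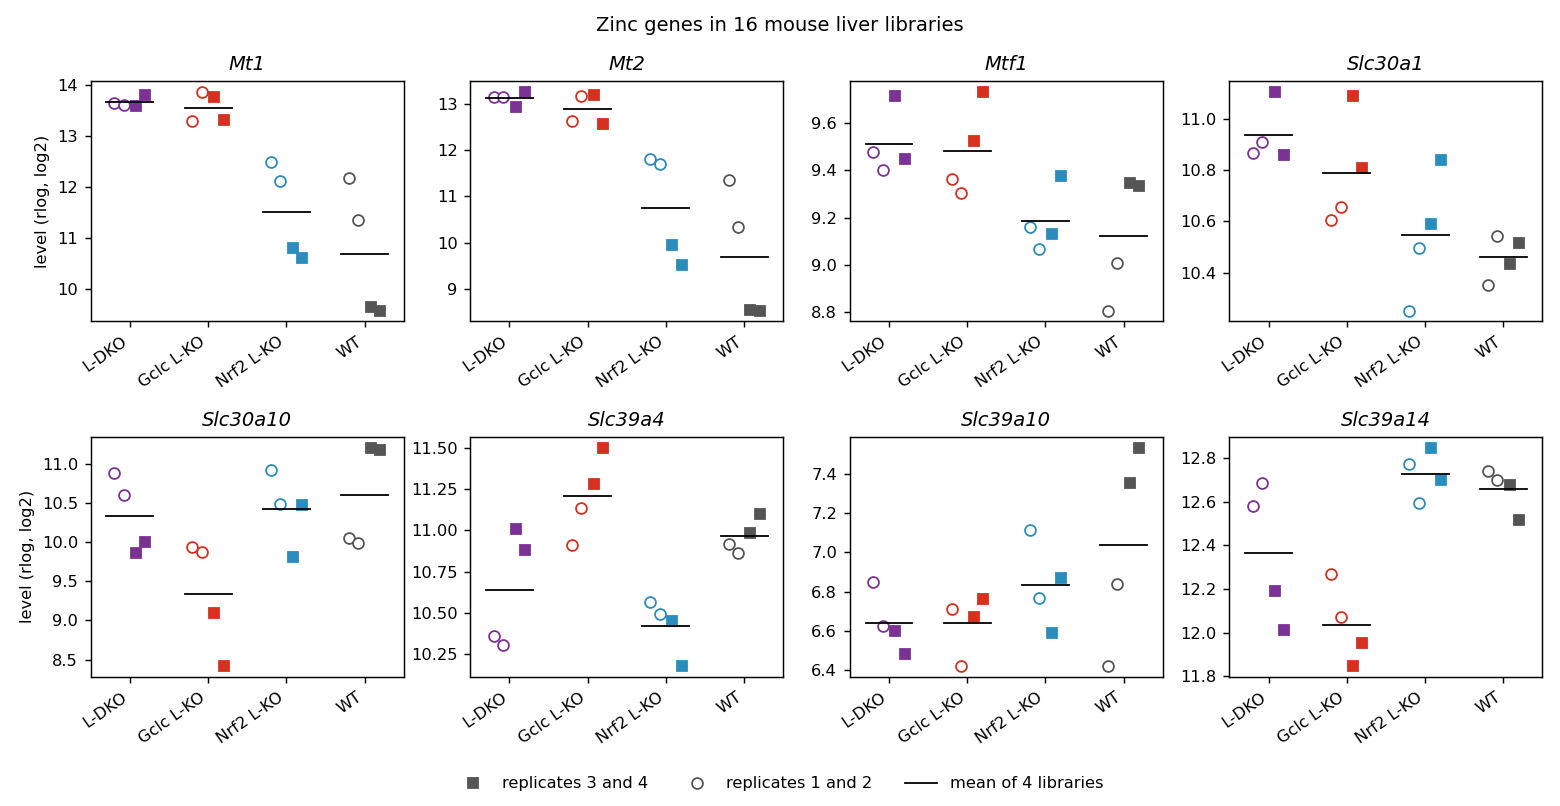
Level of each of the 8 genes (rlog, log2) in every library, with L-DKO at the left of each panel and WT at the right. Filled squares are replicates 3 and 4, open circles are replicates 1 and 2, and lines are means of 4 libraries; *Mt1* and *Mt2* stand above every WT library in all L-DKO and Gclc L-KO libraries.

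Against WT, the metallothioneins carried the largest changes of the 8 genes in L-DKO and Gclc L-KO. In order of replicates 1 to 4, *Mt1* was at 13.66, 13.62, 13.59 and 13.81 in L-DKO livers, at 13.30, 13.87, 13.78 and 13.31 in Gclc L-KO livers, at 12.49, 12.12, 10.81 and 10.60 in Nrf2 L-KO livers, and at 12.19, 11.36, 9.64 and 9.58 in WT livers. All L-DKO and Gclc L-KO libraries lay above all Nrf2 L-KO and WT libraries, and the last 2 genotypes overlapped. *Mt1* was 2.98 higher in L-DKO than in WT (SE 0.52, limma adjusted p = 0.0046), a 7.88-fold difference on the rlog scale, and 2.87 higher in Gclc L-KO (SE 0.52, adjusted p = 0.0019), or 7.33-fold. In Nrf2 L-KO the difference from WT was 0.82, with a 95% interval of -0.30 to 1.93 (limma adjusted p = 0.81). The spread behind this interval includes the gap between replicates 1 and 2 and replicates 3 and 4 in these 2 genotypes. In a fit by replicate pair the difference was 0.53 in replicates 1 and 2 and 1.10 in replicates 3 and 4. Its SE was 0.26 in each pair, and neither was a call.

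*Mt2* followed the same order. It was at 13.14, 13.13, 12.93 and 13.25 in L-DKO livers, at 12.62, 13.17, 13.18 and 12.56 in Gclc L-KO livers, at 11.81, 11.69, 9.94 and 9.51 in Nrf2 L-KO livers, and at 11.35, 10.33, 8.55 and 8.53 in WT livers. Again no L-DKO or Gclc L-KO library reached down to a Nrf2 L-KO or WT library. *Mt2* was 3.42 higher in L-DKO than in WT (SE 0.59, limma adjusted p = 0.0045), a 10.7-fold difference, and 3.19 higher in Gclc L-KO (SE 0.59, adjusted p = 0.0022), or 9.14-fold. In Nrf2 L-KO the difference was 1.04, with an interval of -0.22 to 2.31 (limma adjusted p = 0.78). The spread behind it again includes the gap between the replicate pairs. Within the pairs the difference was 0.91 in replicates 1 and 2 and 1.18 in replicates 3 and 4 (SE 0.30 each), without a call.

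The step from Nrf2 L-KO to L-DKO was also called for both genes, with *Mt1* 2.16 higher (SE 0.52, limma adjusted p = 0.030) and *Mt2* 2.38 higher in L-DKO (SE 0.59, adjusted p = 0.035). With the mean of 5 pancreas markers in the fit, chosen after seeing the data, the differences were 1.95 and 2.16, without a call (adjusted p = 0.19 for both). That mean ran from 7.82 to 13.17 in L-DKO libraries and from 12.08 to 14.84 in Nrf2 L-KO libraries. Each of these calls also ended without L-DKO replicate 1, 3 or 4 or Nrf2 L-KO replicate 3 or 4, at differences of 1.86 to 2.19 for *Mt1* and 1.97 to 2.44 for *Mt2*, while the calls against WT in L-DKO and Gclc L-KO held in all 8. Between L-DKO and Gclc L-KO, *Mt1* differed by 0.10 (95% interval -1.01 to 1.22) and *Mt2* by 0.23 (-1.04 to 1.50). The spread within a genotype was unequal. *Mt1* had an SD of 0.10 in L-DKO, 0.30 in Gclc L-KO, 0.94 in Nrf2 L-KO and 1.30 in WT (n = 4 each), and *Mt2* had 0.14, 0.34, 1.19 and 1.39 in the same order.

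**Figure D2:**
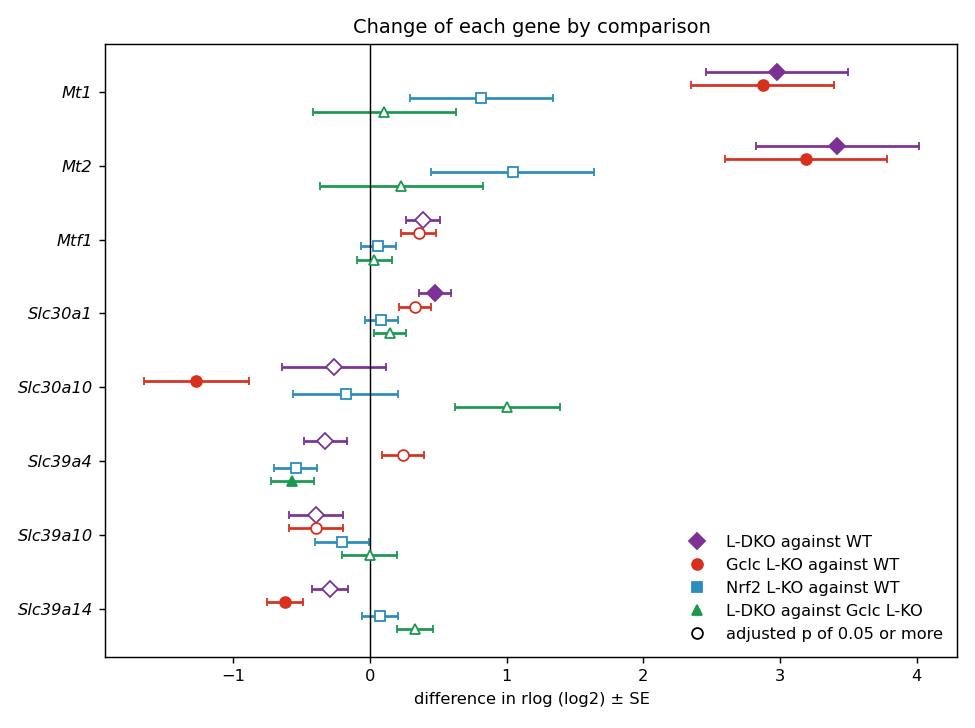
Difference in rlog (log2, bars are the limma SE) of each of the 8 genes in 4 comparisons, 4 libraries per genotype. Filled symbols passed the adjusted p of 0.05; *Mt1* and *Mt2* rose in L-DKO (2.98 and 3.42) and Gclc L-KO (2.87 and 3.19) against WT and differed by 0.10 and 0.23 between these 2 genotypes.

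The pattern of the metallothioneins was set beside 4 genes whose response to NRF2 is well known: *Nqo1*, a quinone reductase, *Gclm*, the partner subunit of *Gclc*, *Srxn1*, which repairs peroxiredoxins, and *Txnrd1*, a thioredoxin reductase. All 4 rose in Gclc L-KO against WT, where 10.6% of all genes rose. In L-DKO against WT 0 were called, where 9.96% of all genes were. All 4 were lower in L-DKO when it was set against Gclc L-KO, where 8.64% of all genes were called in either direction. *Nqo1* was at 8.97, 8.98, 8.21 and 8.18 in L-DKO, at 11.82, 12.61, 12.64 and 12.79 in Gclc L-KO and at 8.81, 9.16, 8.31 and 8.05 in WT. The interaction was called for all 4, where 0.687% of all genes were. It was -3.18 for *Nqo1* (SE 0.43, limma adjusted p = 0.0026). For *Mt1* it was -0.71 (95% interval -2.29 to 0.86, adjusted p = 0.69) and for *Mt2* -0.82 (-2.61 to 0.98, adjusted p = 0.68). The intervals of the metallothioneins are wide, and the spread behind them includes the gap between the replicate pairs. Fitted by pair, the *Mt1* interaction was -0.94 (SE 0.37) with replicates 3 and 4. It was -0.48 (SE 0.37) with replicates 1 and 2. The *Mt2* values, in the same order, were -0.96 and -0.67 (SE 0.43 each). These 4 values share the sign of *Nqo1*, without a call (limma adjusted p = 0.17 to 0.68, unadjusted p = 0.025 to 0.22). Their mean over the pairs was not tested. The difference between *Nqo1* and the metallothioneins was not itself tested.

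*Mtf1*, the zinc sensor, showed small differences that did not pass. It was at 9.48, 9.40, 9.71 and 9.45 in L-DKO, at 9.36, 9.30, 9.53 and 9.73 in Gclc L-KO, at 9.16, 9.07, 9.13 and 9.37 in Nrf2 L-KO, and at 8.81, 9.01, 9.35 and 9.33 in WT. All L-DKO libraries lay above all WT libraries, with a difference of 0.39 (SE 0.13, limma adjusted p = 0.064). In Gclc L-KO it was 0.36 (SE 0.13, adjusted p = 0.056). With *Xist* as a covariate, which takes up the gap between replicates 1 and 2 and replicates 3 and 4, both passed (adjusted p = 0.0086 in L-DKO and 0.0070 in Gclc L-KO), and the Gclc L-KO difference also passed without Gclc L-KO replicate 1 or 2 or WT replicate 3 or 4 (0.40 to 0.43).

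*Slc30a1*, the exporter of the cell surface that MTF1 is known to turn on, rose in L-DKO livers. It was at 10.87, 10.91, 11.10 and 10.86 in L-DKO, at 10.61, 10.66, 11.09 and 10.81 in Gclc L-KO, at 10.25, 10.50, 10.59 and 10.84 in Nrf2 L-KO, and at 10.35, 10.54, 10.43 and 10.52 in WT. Every L-DKO and Gclc L-KO library lay above every WT library. The difference from WT was 0.47 in L-DKO (SE 0.12, limma adjusted p = 0.025, 1.39-fold) and 0.33 in Gclc L-KO (SE 0.12, adjusted p = 0.059). The L-DKO call ended without L-DKO replicate 3 or 4 or WT replicate 1 or 3, at differences of 0.42 to 0.50. It also ended in a fit of replicates 1 and 2 alone (0.44, adjusted p = 0.097). The Gclc L-KO difference passed with array weights (adjusted p = 0.028), with a replicate block (adjusted p = 0.026), with *Xist* in the fit (adjusted p = 0.024), in a fit of replicates 3 and 4 alone (difference 0.47, adjusted p = 0.033) and without Gclc L-KO replicate 1 (0.39). The means of L-DKO and Gclc L-KO, 10.93 and 10.79, did not differ beyond their spread (difference 0.15, 95% interval -0.11 to 0.40).

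Of the 7 genes listed as MTF1 targets, 4 rose in L-DKO and 3 in Gclc L-KO against WT, and 0 fell in either. Of all genes, 3.79% rose in L-DKO and 10.6% in Gclc L-KO. The median change of the 7 was 0.47 in L-DKO and 0.33 in Gclc L-KO. *Mt1*, *Mt2* and *Slc30a1* are on this list and were themselves chosen with earlier results known. Setting the counts of the list beside the shares of all genes is therefore not independent evidence. Besides them, only *Csrp1*, a LIM domain protein, was called, and the other listed genes were not. It was 0.59 higher in L-DKO (SE 0.15, limma adjusted p = 0.030) and 0.49 higher in Gclc L-KO (SE 0.15, adjusted p = 0.034). *Slc39a10*, which zinc is known to repress through MTF1, was 0.40 lower in L-DKO and 0.39 lower in Gclc L-KO, without a call.

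*Slc30a10*, an exporter that clears manganese from the hepatocyte, fell in Gclc L-KO livers. It was at 10.89, 10.61, 9.86 and 10.01 in L-DKO, at 9.94, 9.88, 9.10 and 8.42 in Gclc L-KO, at 10.92, 10.49, 9.81 and 10.48 in Nrf2 L-KO, and at 10.05, 9.99, 11.21 and 11.17 in WT. All Gclc L-KO libraries lay below all WT libraries, though replicates 1 and 2 did so by little. The difference was -1.27 (SE 0.38, limma adjusted p = 0.028), and the call ended when Gclc L-KO replicate 3 or 4 or WT replicate 3 or 4 was left out (-1.19 to -0.97), without a filter on low values (adjusted p = 0.054), with only the 2 groups compared (adjusted p = 0.059), or with the pancreas marker mean in the fit (-1.20, adjusted p = 0.053). In L-DKO against WT the difference was -0.26 (95% interval -1.08 to 0.55), and L-DKO livers stood 1.01 above Gclc L-KO livers, without a call over all libraries (limma adjusted p = 0.12).

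*Slc39a14*, an importer of zinc, manganese and iron that inflammation is known to raise in liver, also fell in Gclc L-KO livers. It was at 12.58, 12.68, 12.19 and 12.01 in L-DKO, at 12.27, 12.07, 11.85 and 11.95 in Gclc L-KO, at 12.77, 12.59, 12.85 and 12.70 in Nrf2 L-KO, and at 12.74, 12.70, 12.67 and 12.52 in WT. The Gclc L-KO libraries lay below all WT and all Nrf2 L-KO libraries. The difference from WT was -0.62 (SE 0.13, limma adjusted p = 0.0048, 0.649-fold), and it stayed a call in all 8 fits that left out 1 library. In L-DKO the difference was -0.29 (SE 0.13, adjusted p = 0.16), and it passed without L-DKO replicate 2 (-0.40, adjusted p = 0.044).

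*Slc39a4*, the importer best known for taking up dietary zinc in the gut, was called lower in L-DKO when set against Gclc L-KO. It was at 10.36, 10.31, 11.01 and 10.88 in L-DKO, at 10.91, 11.14, 11.28 and 11.50 in Gclc L-KO, at 10.57, 10.50, 10.45 and 10.18 in Nrf2 L-KO, and at 10.92, 10.86, 10.99 and 11.10 in WT. The L-DKO and Gclc L-KO libraries overlapped over the 4 replicates, but inside each replicate pair (1 and 2, 3 and 4) the L-DKO libraries were the lower ones. The difference was -0.57 (SE 0.16, limma adjusted p = 0.036), and the call ended without L-DKO replicate 1 or 2 or Gclc L-KO replicate 2, 3 or 4, at differences of -0.59 to -0.46, and also without a filter (adjusted p = 0.069), after quantile normalization (0.065) and with only the 2 groups compared (0.13). All Nrf2 L-KO libraries lay below all WT libraries, by 0.54 on average (SE 0.16), and the adjusted p over all genes was 0.43 (unadjusted p = 0.0035).

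*Slc39a10*, an importer of the cell surface, passed in no comparison over all libraries. It was at 6.85, 6.62, 6.60 and 6.49 in L-DKO, at 6.71, 6.42, 6.67 and 6.76 in Gclc L-KO, at 7.11, 6.77, 6.59 and 6.87 in Nrf2 L-KO, and at 6.42, 6.84, 7.35 and 7.53 in WT. The WT libraries spread over more than the other genotypes together did, with an SD of 0.15 in L-DKO against 0.51 in WT. Without WT replicate 1 the L-DKO difference passed (-0.60, limma adjusted p = 0.049).

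The order of the means was L-DKO, Gclc L-KO, Nrf2 L-KO, WT from high to low for *Mt1*, *Mt2*, *Mtf1* and *Slc30a1*. For each of these, neither L-DKO against Gclc L-KO nor Nrf2 L-KO against WT was called over all 4 replicates. For *Mt1* and *Mt2* the spread of WT and Nrf2 L-KO over all 4 replicates includes the gap between replicate pairs. Gclc L-KO was not tested against Nrf2 L-KO. Within the replicate pairs, *Mt1* stood above WT in Nrf2 L-KO by 1.10 in replicates 3 and 4 and by 0.53 in replicates 1 and 2. For *Mt2* these differences were 1.18 and 0.91. None of the 4 was a call (limma adjusted p = 0.087 to 0.38, unadjusted p = 0.0012 to 0.063). For *Slc30a10* the order was WT, Nrf2 L-KO, L-DKO, Gclc L-KO, for *Slc39a14* it was Nrf2 L-KO, WT, L-DKO, Gclc L-KO, and for *Slc39a4* it was Gclc L-KO, WT, L-DKO, Nrf2 L-KO. No pair of neighbours in these 3 orders was called. *Slc39a10* was highest in WT and at 6.64 in both L-DKO and Gclc L-KO.

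Levels and changes differed between the replicate pairs of a genotype. In WT livers, replicates 3 and 4 had *Mt1* at a mean of 9.61 and replicates 1 and 2 at 11.78, a difference of -2.17 (SE 0.26, limma adjusted p = 7.4e-04). *Mt2* differed by -2.30 (adjusted p = 0.0015). In WT 4 of the 8 genes were called between the pairs, where 3.09% of all genes were. The same gap stood in Nrf2 L-KO livers, at -1.60 for *Mt1* and -2.03 for *Mt2*, the 2 genes called there, where 2.15% of all genes were. In the genotypes with *Gclc* targeted no such gap was seen. There *Mt1* differed by 0.06 in L-DKO and by -0.04 in Gclc L-KO, and *Mt2* by -0.05 and -0.02. Between the pairs of L-DKO 3 of the 8 genes were called and between those of Gclc L-KO 1, where 11.9% and 7.56% of all genes were. Averaged over genotypes, 3 of the 8 genes were higher in replicates 3 and 4 (*Mtf1*, *Slc30a1* and *Slc39a4*) and 3 were lower (*Mt1*, *Mt2* and *Slc39a14*), where 21.4% of all genes were called.

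The rise of the metallothioneins over WT was larger in replicates 3 and 4. *Mt1* rose by 4.09 in L-DKO replicates 3 and 4, against 1.86 in replicates 1 and 2, and the difference of 2.23 passed the test over all genes (SE 0.37, limma adjusted p = 0.015). In Gclc L-KO it rose by 3.94 in replicates 3 and 4, against 1.81 in replicates 1 and 2 (difference 2.13, adjusted p = 0.024). *Mt2* rose by 4.54 in L-DKO replicates 3 and 4, against 2.30 in replicates 1 and 2, and by 4.33 in Gclc L-KO replicates 3 and 4, against 2.05. All 8 of these changes within a pair were called, where 25% of all genes were in L-DKO replicates 3 and 4, 2.8% in L-DKO replicates 1 and 2, 29.9% in Gclc L-KO replicates 3 and 4 and 10.5% in Gclc L-KO replicates 1 and 2. Of all genes, 4.34% had a change that differed between the pairs in L-DKO and 0.899% in Gclc L-KO. Each pair rests on 2 libraries a genotype, and its spread was pooled over the 8 pairs. The tested differences between pairs lost their call without WT replicate 1, 3 or 4 in both genotypes, at 1.72 to 2.28 over both genes. In Gclc L-KO the call of *Mt1* also ended without Gclc L-KO replicate 1 (1.84) and that of *Mt2* without Gclc L-KO replicate 1, 3 or 4 (1.96 to 2.58), and in L-DKO that of *Mt2* ended without any 1 of the L-DKO libraries (2.08 to 2.41).

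The change of *Slc30a10* against WT differed between the pairs. In WT livers its mean was 11.19 in replicates 3 and 4 and 10.02 in replicates 1 and 2, a difference of 1.17 (SE 0.23, limma adjusted p = 0.022). In Gclc L-KO livers replicates 3 and 4 were instead lower by 1.15 (adjusted p = 0.015), and in L-DKO livers by 0.82 (adjusted p = 0.044). Against WT, *Slc30a10* changed by -2.43 in Gclc L-KO replicates 3 and 4 and by -0.11 in replicates 1 and 2 (difference -2.32, adjusted p = 0.0095). In L-DKO it changed by -1.26 in replicates 3 and 4, a call, and by 0.73 in replicates 1 and 2, which was not one (difference -1.99, adjusted p = 0.016). The difference lost its call without WT replicate 1, 3 or 4 or L-DKO replicate 3 in L-DKO (-2.02 to -1.91), and without WT replicate 3 or Gclc L-KO replicate 1 in Gclc L-KO (-2.30 and -2.29). Set against Gclc L-KO, L-DKO stood 1.17 higher in replicates 3 and 4, a call (adjusted p = 0.0065), and 0.84 higher in replicates 1 and 2 (adjusted p = 0.086, or 0.047 in a fit of those replicates alone). In replicates 3 and 4 the interaction was called as well, at 2.22 (adjusted p = 0.0047), where 4.3% of all genes were. In replicates 1 and 2 it was 0.15, and the difference between these 2 interactions did not pass (adjusted p = 0.39). *Slc39a10* showed the same direction, with changes of -0.90 in L-DKO replicates 3 and 4 and 0.11 in replicates 1 and 2, and the difference did not pass (adjusted p = 0.051).

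*Slc39a14* fell in both pairs of Gclc L-KO, by 0.70 in replicates 3 and 4 and by 0.55 in replicates 1 and 2. In L-DKO it fell by 0.50 in replicates 3 and 4, and was 0.09 lower in replicates 1 and 2 without a call. In both pairs *Slc39a4* was lower in L-DKO when set against Gclc L-KO. The difference was -0.44 in replicates 3 and 4 (limma adjusted p = 0.018) and -0.69 in replicates 1 and 2 (adjusted p = 0.0049), where 17% and 3.18% of all genes were called. Against WT, *Slc39a4* was lower in L-DKO replicates 1 and 2 (-0.56, adjusted p = 0.026) and at -0.10 in replicates 3 and 4 without a call, and it was higher in Gclc L-KO replicates 3 and 4 (0.35, adjusted p = 0.033). In Nrf2 L-KO it was lower in replicates 3 and 4 (-0.73, adjusted p = 0.013), where 0.721% of all genes were called, and at -0.36 in replicates 1 and 2 without a call (adjusted p = 0.23). None of these differences between pairs passed the test.

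**Figure D3:**
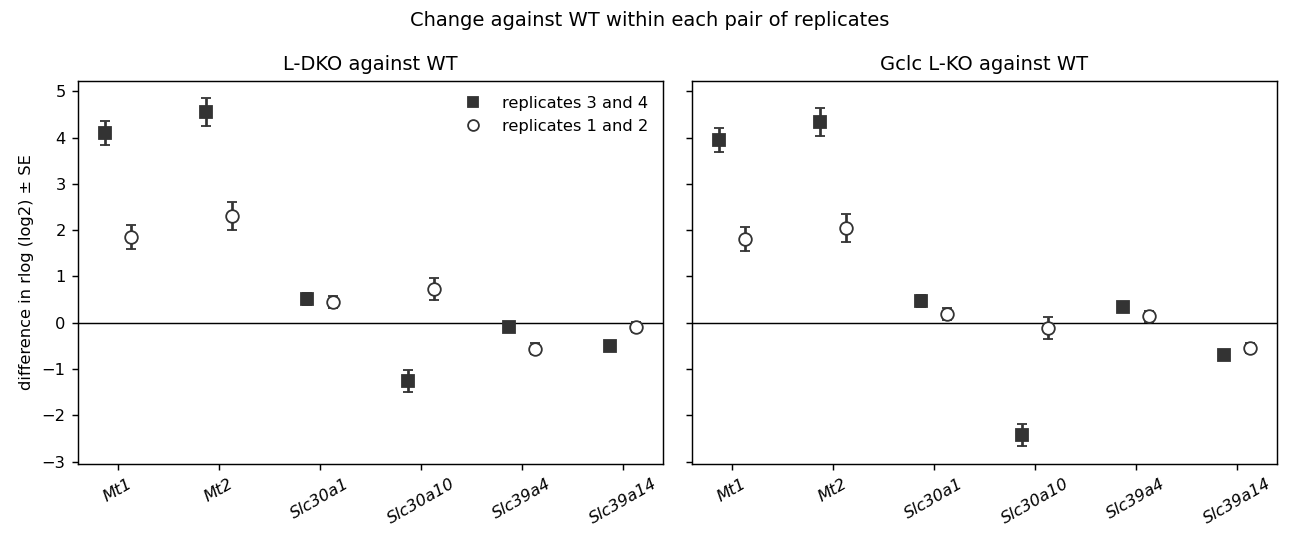
Change against WT (difference in rlog, bars are the limma SE) for replicates 3 and 4 (filled squares) and for replicates 1 and 2 (open circles), 2 libraries a genotype in each. *Mt1* rises by 4.09 and 1.86 in the pairs of L-DKO, and *Slc30a10* changes by -1.26 and 0.73.

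The metallothionein and zinc transporter families hold 28 genes, of which 23 were tested; *Mt3*, *Mt4*, *Slc30a2*, *Slc30a8* and *Slc39a12* lay under the minimum. In L-DKO against WT 3 rose and 1 fell, in Gclc L-KO 5 rose and 4 fell, and in Nrf2 L-KO 0 were called, with 2 at an unadjusted limma p under 0.05. Beside these counts, the shares of all genes called for L-DKO were 3.79% higher and 6.17% lower. For Gclc L-KO the shares were 10.6% higher and 12.4% lower, and for Nrf2 L-KO 0.139% in either direction. At the unadjusted threshold the share of all genes was not counted. The median change over the 23 was -0.05 in L-DKO and 0.13 in Gclc L-KO. *Slc30a4*, *Slc30a5* and *Slc30a6*, which load zinc into vesicles and the secretory pathway, rose in Gclc L-KO by 0.63 (SE 0.13), 0.38 (SE 0.11) and 0.24 (SE 0.08). *Slc30a3*, a vesicle exporter best known in neurons, fell by 0.56 in Gclc L-KO against WT and stood 0.60 higher in L-DKO when set against Gclc L-KO, at low levels of 2.6 to 4.2 in all libraries. *Slc39a11*, an importer of the Golgi, fell by 0.66 in L-DKO (SE 0.11, limma adjusted p = 0.0039) and by 0.39 in Gclc L-KO (SE 0.11, adjusted p = 0.023). It was at 8.98, 8.95, 8.59 and 8.70 in L-DKO, at 9.22, 9.13, 9.06 and 8.91 in Gclc L-KO and at 9.30, 9.34, 9.56 and 9.66 in WT, with no overlap of either with WT. *Slc39a3*, an importer of the cell surface, stood 0.32 above its Gclc L-KO level in L-DKO (SE 0.08, adjusted p = 0.023). With the pancreas marker mean in the fit, *Slc39a3* differed by 0.25 (adjusted p = 0.053) and *Slc30a3* by 0.54 (adjusted p = 0.12) in that comparison, and *Slc30a3* by -0.51 in Gclc L-KO against WT (adjusted p = 0.064), without a call.

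**Figure D4:**
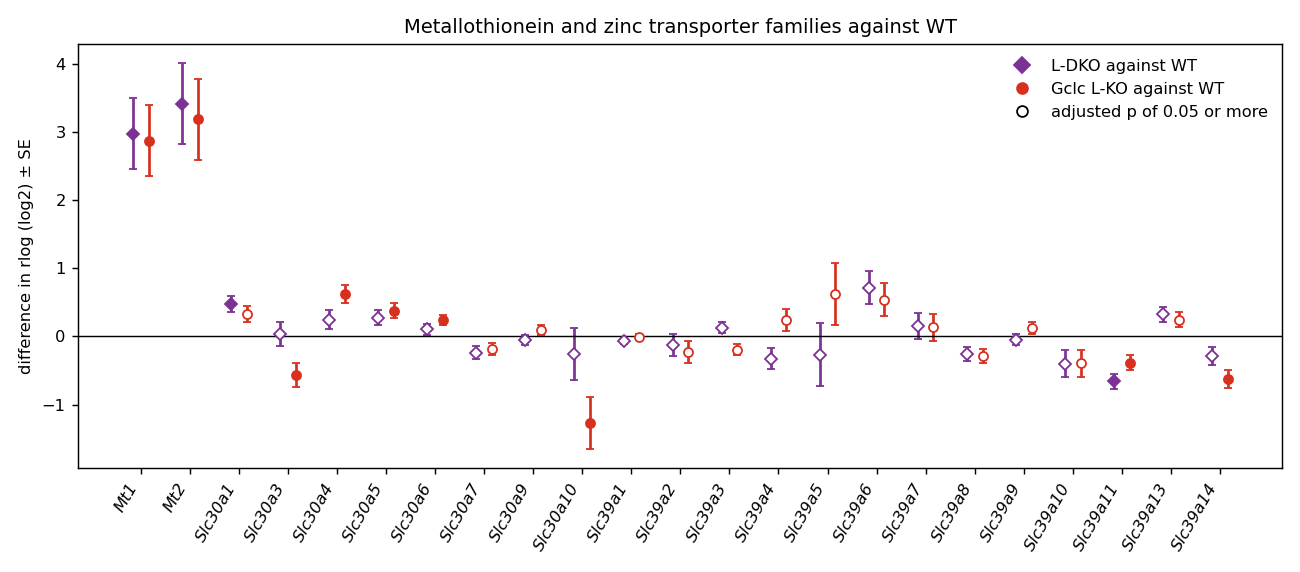
Change against WT (difference in rlog, bars are the limma SE) of the 23 tested family genes in L-DKO (diamonds) and Gclc L-KO (circles), 4 libraries per genotype. Filled symbols passed the adjusted p of 0.05; outside *Mt1* and *Mt2* the change farthest from 0 is that of *Slc30a10* in Gclc L-KO (-1.27).

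Genes of copper and manganese handling were counted in the same way, beside 3.79% higher and 6.17% lower of all genes in L-DKO and 10.6% higher and 12.4% lower in Gclc L-KO. Of 13 copper handling genes, *Mt1* and *Mt2* included, 2 rose and 1 fell in L-DKO and 4 rose and 4 fell in Gclc L-KO. The fall in L-DKO was in *Slc31a1*, the copper importer of the cell surface (-0.44, SE 0.11, limma adjusted p = 0.024). In Gclc L-KO *Atp7a*, a copper exporter, rose by 0.47, while *Cp*, the copper carrier of plasma, *Sco2*, an assembly factor of cytochrome oxidase, and *Ccs*, the copper chaperone of superoxide dismutase, fell by 0.55, 0.38 and 0.36. Of 6 manganese handling genes, 0 were called in L-DKO and 2 fell in Gclc L-KO, which were *Slc30a10* and *Slc39a14*, both among the 8 genes chosen.

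Genes that glucocorticoids and acute phase signals are known to turn on, as they do metallothioneins, were counted against the same shares of all genes, and 0 of them were called higher in L-DKO or Gclc L-KO against WT. Of 7 glucocorticoid-induced genes, 0 were called in L-DKO against WT and 3 fell in Gclc L-KO: *Tsc22d3*, an anti-inflammatory leucine zipper protein, by 1.08, *Tat*, tyrosine aminotransferase, by 1.59, and *Pck1*, the first enzyme of gluconeogenesis, by 1.61. Set against Gclc L-KO, *Tat* and *Pck1* were higher in L-DKO by 1.49 and 1.11. *Fkbp5*, a chaperone partner of the glucocorticoid receptor in the same list, was at 9.91, 10.35, 9.93 and 9.61 in L-DKO, at 10.41, 10.70, 10.42 and 10.46 in Gclc L-KO and at 10.60, 10.11, 9.41 and 9.28 in WT. Its difference from WT was 0.10 in L-DKO and 0.65 in Gclc L-KO (95% interval 0.06 to 1.23, limma adjusted p = 0.099, unadjusted p = 0.032), and its WT libraries were lower in replicates 3 and 4, as those of *Mt1* and *Mt2* were. Of 11 acute phase genes, 1 fell in L-DKO and 3 fell in Gclc L-KO. *Orm1*, a plasma acid glycoprotein, fell by 1.19 in L-DKO and by 1.53 in Gclc L-KO, and the fibrinogen chains *Fgb* and *Fgg* fell by 1.03 and 0.98 in Gclc L-KO.

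The genes most like each of 4 genes were found by Pearson's r over the 16 libraries, as a description; the libraries share genotype and replicate pair. *Mt1* and *Mt2* were each other's closest gene, with r = 0.997, and r = 0.992 after the genotype means were removed. The next genes were *Tmem87a* (0.895 for *Mt1*, 0.896 for *Mt2*) and *Miga1* (0.888 and 0.880). *Slc30a10* was closest to *Celsr1* (0.955), *Fpgs* (0.954) and *Gm2061* (0.952), and *Slc39a14* to *Spata2l* (0.956), *Fmn1* (0.956) and *Acsl5* (0.948). After the genotype means were removed, *Stk26* (0.904) and *Fkbp5* (0.891) followed *Mt2* for *Mt1*, and *Fkbp5* (0.883) and *Ugt2b37* (0.879) followed *Mt1* for *Mt2*. Within genotypes *Mt1* and *Mtf1* ran in opposite directions, with r = -0.727 of the deviations from genotype means.

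RNA from other tissues and cells differed between libraries. The mean of 5 acinar pancreas markers (*Cpa1*, *Cela1*, *Pnlip*, *Prss2* and *Ctrb1*) ranged from 7.82 to 13.17 in L-DKO, from 7.77 to 14.63 in Gclc L-KO, from 12.08 to 14.84 in Nrf2 L-KO and from 8.08 to 12.75 in WT, and 0 of the 5 were called in any comparison. At an unadjusted limma p under 0.05, 4 of the 5 differed in Nrf2 L-KO against WT (median change 3.41). All 5 did so in L-DKO against Nrf2 L-KO (median -3.85) and in the interaction (median -5.70). How many of all genes passed that unadjusted threshold was not counted. *Slc39a5*, an importer also made in the pancreas, followed the marker mean (r = 0.710 over 16 libraries). *Slc39a3* ran against it, with r = -0.425, and r = -0.835 of the deviations from genotype means, while *Mt1*, *Mt2*, *Slc30a10* and *Slc39a14* had r between -0.185 and 0.157. Adding the pancreas marker mean to the fit left the calls of *Mt1* and *Mt2* against WT in L-DKO and Gclc L-KO in place.

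**Figure D5:**
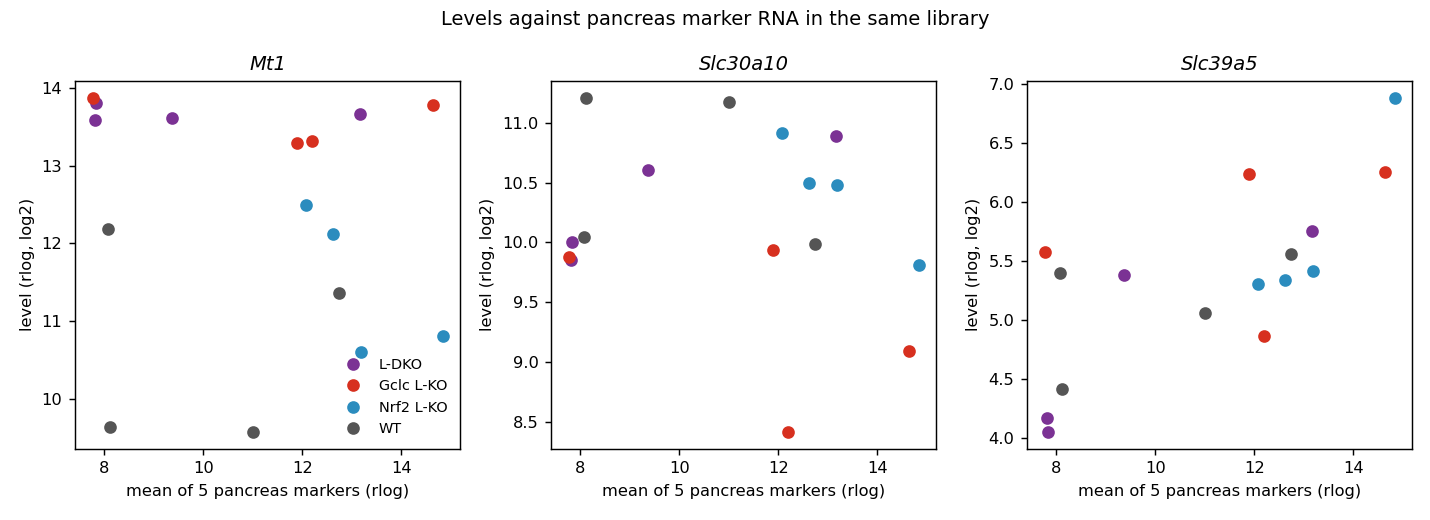
Level (rlog) of *Mt1*, *Slc30a10* and *Slc39a5* in each of 16 libraries against the mean of 5 pancreas markers in the same library, colored by genotype. *Slc39a5* climbs with the markers (r = 0.710), and the 8 L-DKO and Gclc L-KO points of *Mt1* lie between 13.30 and 13.87.

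Marker counts in this paragraph stand beside 10.6% of all genes higher and 12.4% lower in Gclc L-KO, and 9.96% called in L-DKO, against WT. Of 5 Kupffer cell markers, 3 rose in Gclc L-KO and 0 were called in L-DKO. Their mean ranged from 9.83 to 10.60 in L-DKO, from 10.35 to 10.72 in Gclc L-KO and from 9.46 to 9.96 in WT. The mean of the hepatocyte markers *Alb*, *Ttr*, *Apob* and *Serpina1c* ranged from 17.69 to 17.96 in L-DKO, from 17.09 to 17.68 in Gclc L-KO and from 17.98 to 18.14 in WT. Of the 4, *Serpina1c* was called lower in Gclc L-KO. *Alb* had a mean of 20.21 in Gclc L-KO and 21.32 in WT, without a call. Of the 5 endothelial markers, *Lyve1* rose in Gclc L-KO. Of the neutrophil, stellate cell, bile duct, lymphocyte and gut markers that were tested, 0 were called in any comparison with WT. The part of these cells in the values of the zinc genes was not tested, and in whole liver a change in the number of a cell type and a change in RNA per cell cannot be told apart.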

How the data were processed

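Liver RNA of 16 mice was analysed as 1 table. The authors deposited DESeq2 rlog values, which are on a log2 scale and normalized between libraries. Libraries came from a stranded poly(A) kit, and the submitters' processing notes name the assembly GRCm39 and the tools R 3.5.1, DESeq2 1.34.0, Subread 2.0.1 with featureCounts, STAR 2.7.9a, fastp and bcl2fastq 2.20.0. Counts cannot be had from rlog values, so no count model was run, and depth and the precision it gives are unknown. Genes with a mean rlog of at least 3 were fitted in R 4.3.3 with limma 3.58.1, using moderated variances with a mean trend and 1 mean for each genotype; the p-values are two-sided and Benjamini-Hochberg adjusted over all 15128 genes, and differences are on the rlog scale. A second fit had 1 mean per genotype and replicate pair. Figures used matplotlib 3.10.9 in Python 3.11.15. The fit was tested on simulated data.

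The 8 genes, the gene lists and the alternatives were chosen with earlier results of these data known. Named were the 8 genes, the genes of the lists called in a comparison (at most 4 a list and comparison, by size), the 3 genes most like *Mt1*, *Mt2*, *Slc30a10* and *Slc39a14*, the targeted genes and *Xist*; *Slc39a5*, *Mtf1* as a partner of *Mt1*, *Serpina1c*, *Lyve1* and the genes below the minimum were named after their values were seen. The alternatives left out the filter or raised it to 6, left out the trend, used robust eBayes or array weights, applied quantile normalization or median centring, added *Xist* or a replicate block, or kept only the groups compared, 1 replicate pair or all libraries but 1. Libraries are separate animals by their labels.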

Additional observations from a re-analysis of the deposited data

Results flagged for a closer look

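The changes of 3 of the 8 genes against WT differed between replicates 3 and 4 and replicates 1 and 2 by a test of that difference (limma, adjusted over all genes). In L-DKO the change of *Mt1* was 2.23 larger in replicates 3 and 4 (adjusted p = 0.015), that of *Mt2* was 2.25 larger (adjusted p = 0.021), and that of *Slc30a10* differed by -1.99 (adjusted p = 0.016). In Gclc L-KO the differences were 2.13 for *Mt1* (adjusted p = 0.024), 2.27 for *Mt2* (adjusted p = 0.031) and -2.32 for *Slc30a10* (adjusted p = 0.0095). The WT livers are shared by both comparisons, and in them *Mt1* and *Mt2* were lower, and *Slc30a10* higher, in replicates 3 and 4. Each value rests on 2 libraries a genotype and pair. The replicate pairs differ in *Xist*, and what else separates them is not given in the labels. No library of any of the 8 genes stood apart from the other 3 of its genotype by Dixon's test.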

How the results depend on the processing

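The differences of *Mt1* and *Mt2* from WT in L-DKO and Gclc L-KO and of *Slc39a14* from WT in Gclc L-KO kept their direction and their call under all 13 alternatives and without any 1 of the 8 libraries compared. Over the 13 alternatives, *Mt1* lay between 1.86 and 4.09 in L-DKO and between 1.81 and 3.94 in Gclc L-KO, both ends coming from 1 replicate pair alone. The difference of *Mt1* between L-DKO and Gclc L-KO was -0.0158 with the pancreas marker mean as a covariate, and that of *Slc39a10* between L-DKO and WT was 0.11 in replicates 1 and 2 alone, both with the opposite sign and no call. *Mt1* was called in Nrf2 L-KO against WT only in a fit of replicates 3 and 4 alone (1.10, limma adjusted p = 0.034), and not in the fit of all replicate pairs together (adjusted p = 0.087).

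The share of all genes called under each alternative is not given here, so the changes below cannot be set apart from changes over all genes. In the fit with 1 mean per genotype and replicate pair, 25% of all genes were called in L-DKO replicates 3 and 4 against WT, beside 9.96% in the main fit. Counts of the 8 genes called changed by more than 1.5 times as follows. For L-DKO against WT, with 3 calls, there were 5 with array weights and 6 in replicates 3 and 4. For L-DKO against Gclc L-KO, with 1, there were 0 without a filter and with only the groups compared, and 2 with array weights and in each replicate pair. For L-DKO against Nrf2 L-KO, with 2, there were 0 without a filter, in replicates 1 and 2 and with the pancreas marker mean, 1 with only the groups compared, 4 in replicates 3 and 4 and 5 with *Xist*. In Nrf2 L-KO against WT and in the interaction, with 0, there was 1 in replicates 3 and 4. Counts of the 23 family genes were 15 with array weights and 5 in replicates 1 and 2 for Gclc L-KO against WT, beside 9. For L-DKO against WT, beside 4, they were 8 with array weights or *Xist* and 10 in replicates 3 and 4. For L-DKO against Gclc L-KO, beside 3, they were 1 without a filter, with only the groups compared and with the pancreas marker mean. For L-DKO against Nrf2 L-KO, beside 3, they were 1 without a filter and with only the groups compared, 0 in replicates 1 and 2 and with the pancreas marker mean, 9 in replicates 3 and 4 and 10 with *Xist*. For Nrf2 L-KO against WT, beside 0, there was 1 with array weights and in replicates 3 and 4, and for the interaction 1 in replicates 3 and 4. The causes were not tested.

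Leaving out 1 library in turn gave 3 to 6 of the 8 genes for Gclc L-KO against WT, 2 to 4 for L-DKO against WT, 0 to 2 for L-DKO against Gclc L-KO, 0 to 3 for L-DKO against Nrf2 L-KO and 0 for Nrf2 L-KO against WT and the interaction. For the 23 family genes the ranges were 4 to 12 (4 without Gclc L-KO replicate 3), 3 to 8 (8 without L-DKO replicate 2), 0 to 3, 0 to 7 and 0. Shares of all genes are not given for these fits either.

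The differences between replicate pairs kept their direction in all alternatives. For *Mt2* in Gclc L-KO (2.27) the call ended without a filter, without the trend and with robust eBayes (adjusted p = 0.065, 0.052 and 0.052). Leaving out 1 of the 8 libraries gave, in L-DKO, 1.82 to 2.65 for *Mt1* (call ended without WT replicate 1, 3 or 4), 1.74 to 2.76 for *Mt2* (held only without WT replicate 2) and -2.13 to -1.85 for *Slc30a10* (ended without WT replicate 1, 3 or 4 or L-DKO replicate 3). In Gclc L-KO it gave 1.72 to 2.54 for *Mt1* (ended without WT replicate 1, 3 or 4 or Gclc L-KO replicate 1), 1.76 to 2.79 for *Mt2* (held only without WT or Gclc L-KO replicate 2) and -2.66 to -1.98 for *Slc30a10* (ended without WT replicate 3 or Gclc L-KO replicate 1). These alternatives and the pancreas marker mean were chosen after seeing the data.

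Replicate numbers were not taken as pairing the samples: same-numbered libraries of 2 genotypes had correlations of deviations from -0.07 to 0.55, with 20 of 24 above 0.1, and 6 of 16 libraries correlated best with their own number. With a replicate block, 4 of the 8 genes and 7 of the 23 family genes were called in L-DKO against Nrf2 L-KO, beside 2 and 3, and *Mtf1* and *Slc30a1* gained calls. The share of all genes called with the block is not given. The rlog values carry no depth, so the share of the spread that comes from counting cannot be given.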
